A study of Mus musculus with 24 samples.

Results

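The genes described here encode scaffold proteins of the skeletal muscle sarcomere. They were taken by name and are 10 of the 24062 gene symbols in both count tables. The 10 genes and the gene lists below were chosen with earlier results of these data known. Their counts beside the shares of all genes are therefore descriptions. Titin (Ttn) and nebulin (Neb) are the giant filament proteins. Alpha-actinin-2 (Actn2), myozenin-1 (Myoz1), myozenin-3 (Myoz3), LIM domain binding 3 (Ldb3) and filamin C (Flnc) belong to the Z-disc. Myomesin-1 (Myom1) and myomesin-2 (Myom2) belong to the M-band, and myosin binding protein H (Mybph) sits on the thick filament. All 10 were found in both tables, and all 10 passed the filter on low counts in every fit.

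RNA of mouse quadriceps on the C57BL/6 background was sequenced in 24 libraries, which fall into 9 groups of 3 genotypes. Corrected mice were delEx44 mice injected into the peritoneum on postnatal day 4 with 2 AAV9 vectors, 1 carrying a single guide RNA and 1 carrying SpCas9. The delEx44 mice carry a deletion of exon 44 of Dmd, the dystrophin gene, and serve as a model of Duchenne muscular dystrophy. WT mice are the undeleted controls. Each genotype had 3 sedentary libraries at 4 weeks and 3 at 18 months, with 2 more from mice of 8 weeks that had run downhill for 1 month. Running was at a 15 degree decline and 12 m/min on alternate days. Corrected mice of the 4-week and run groups received 8e13 vg/kg of each vector, with a self-complementary guide vector. Those of the 18-month group received 2.5e14 vg/kg of a single-stranded guide vector and 5e13 vg/kg of the Cas9 vector. Age, dose and vector type therefore cannot be told apart in corrected mice. Run mice were also 4 weeks older than the youngest mice, so running and growth cannot be told apart either. The labels give neither the promoters that drive Cas9 and the guide nor how many mice stand behind a library, so p-values measure the spread between libraries of a group, which may be technical.

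The sarcomere is the contractile unit of striated muscle. Its thin filaments of actin are anchored in Z-discs, where alpha-actinin cross-links them, and its thick filaments of myosin are cross-linked in the M-band by myomesins. Titin spans from the Z-disc to the M-band and acts as a molecular spring, and nebulin runs along the thin filament and sets its length. Dystrophin links the actin cytoskeleton of the fibre to a protein complex in the membrane. Filamin C binds both Z-disc proteins and sarcoglycans of that complex, and the myozenins tie alpha-actinin to calcineurin at the Z-disc.

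Libraries held 23125930 to 38090522 counts assigned to genes, and member counts ran from 2716 for Mybph to 432598 for Ttn in a library. Levels are CPM, gene counts scaled to library size with TMM factors within a table, so levels at 18 months are not compared with those of the younger groups. Dmd, the check of the labels, stood at 18.3% of the WT level in delEx44 and 74.1% in corrected muscle at 4 weeks, and no delEx44 library reached a corrected or WT library of its stage. This count covers the whole gene and does not show exon 44 itself. All 7 markers of skeletal muscle fibre (such as Acta1, Ckm and Myh4) were detected in every group. The third WT library at 4 weeks stood apart, with 218 CPM summed over the 6 neutrophil markers and 131 CPM over the 7 slow fibre markers. At 18 months the corrected libraries varied, with 142, 1788 and 481 CPM summed over the slow fibre markers in replicates 1, 2 and 3. Counts of members called that rest on these libraries are given with and without them.

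On GRCm38, with the GENCODE vM21 annotation, Ttn lies on chromosome 2 from 76703980 to 76982547 (minus strand) and Neb on the same chromosome from 52136647 to 52378474 (minus strand). The union of annotated exons measured 116.825 kb for Ttn and 26.582 kb for Neb, and the longest Ttn transcript has 347 exons. Among the Z-disc genes, Actn2 lies on chromosome 13 from 12269426 to 12340760 (minus strand). Myoz1 lies on chromosome 14 from 20649107 to 20656540 (minus strand), as does Ldb3 from 34526603 to 34588682 (minus strand). Flnc lies on chromosome 6 from 29433256 to 29461883 (plus strand). Of the M-band genes, Myom1 lies on chromosome 17 from 71002633 to 71126856 (plus strand) and Myom2 on chromosome 8 from 15057653 to 15133541 (plus strand). Mybph lies on chromosome 1 from 134193448 to 134201232 (plus strand) and shares exonic bases with Adora1 on the other strand, as Myom1 does with Myl12a. The sources used here do not state the strand setting of the counting, so reads in these overlaps cannot be assigned to one gene.

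RefSeq promoter windows of 6 of the members were at hand, and 3 are shown because their genes carry the results below. Ttn had the largest fall of the 10 members in delEx44 muscle at 4 weeks, Actn2 was the member that rose at 18 months, and the genotype difference of Mybph changed most with running. Each window holds the 250 bases before the start, read 5′ to 3′ on the gene's strand (RefSeq, GRCm38.p6), with E-boxes (CANNTG, read on both strands) in capitals.
Ttn (chr2:76982548-76982797, minus strand): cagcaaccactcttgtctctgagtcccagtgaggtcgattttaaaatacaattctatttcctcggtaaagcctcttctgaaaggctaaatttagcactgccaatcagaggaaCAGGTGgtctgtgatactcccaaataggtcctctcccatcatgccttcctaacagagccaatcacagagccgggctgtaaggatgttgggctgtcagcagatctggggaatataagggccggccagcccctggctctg
Actn2 (chr13:12340733-12340982, minus strand): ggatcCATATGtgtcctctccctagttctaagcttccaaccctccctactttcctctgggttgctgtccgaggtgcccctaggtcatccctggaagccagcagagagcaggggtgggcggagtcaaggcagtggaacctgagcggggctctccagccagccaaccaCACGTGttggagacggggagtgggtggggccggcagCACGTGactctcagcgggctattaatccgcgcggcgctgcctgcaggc
Mybph (chr1:134193198-134193447, plus strand): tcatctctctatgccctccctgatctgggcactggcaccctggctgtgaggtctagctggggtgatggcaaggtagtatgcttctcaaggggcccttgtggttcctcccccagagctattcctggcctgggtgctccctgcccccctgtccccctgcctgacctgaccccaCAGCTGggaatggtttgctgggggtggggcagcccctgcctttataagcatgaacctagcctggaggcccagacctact
The Actn2 window held 3 E-boxes, and the Ttn and Mybph windows held 1 each. At least 1 E-box was present in 66.2% of all 32851 promoter windows cut to the same 250 bases. The MCAT element (CATTCC, both strands) occurred in the Mybph window and in 12.6% of all windows. A match to the MEF2 consensus (both strands) occurred in the Ttn window and in 2.92% of all windows. No base belonged to 2 of these motifs in the windows shown. These matches describe the letters and are not sites shown to be bound.

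Per kilobase of exon, Myoz1 was the most abundant member in every group. Its mean level was 1252, 749 and 1412 CPM per kb in corrected, delEx44 and WT muscle at 4 weeks. Ldb3 came next at 4 weeks, with 534, 306 and 554 CPM per kb, and its libraries did not overlap those of Myoz1 in any of these groups. Ttn had the highest mean CPM of the members at 4 weeks but was last or next to last per kilobase, with 72.7, 34.9 and 89.0 CPM per kb in corrected, delEx44 and WT muscle. In WT muscle at 4 weeks the middle of the order was not resolved. Mybph, Neb and Myom2 stood at 384.5, 283 and 282 CPM per kb, and neighbours in this order overlapped between libraries. The order also depends on the length used, which is the union of annotated exons. That union is 8853 bases for Myom2, against 5075 in its longest transcript, and 2329 against 2320 for Mybph. The order by longest transcript was not computed. At 18 months Mybph had the lowest mean in all 3 genotypes, with 75.3, 43.9 and 65.8 CPM per kb in corrected, delEx44 and WT muscle. Its libraries overlapped those of Ttn, the next gene up, in corrected and WT muscle but not in delEx44 muscle. The full exonic length was used for Mybph, although part of it is shared with Adora1 on the other strand. Whether reads of that part were counted for Mybph is not known, because the strand setting is not stated. The effect on its rank per kilobase, at 18 months and at 4 weeks, was not tested. Actn2 ranked 2 in delEx44 muscle at 18 months (360 CPM per kb) but overlapped Myoz1 (378 CPM per kb), whereas in WT muscle it ranked 5.

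**Figure D1:**
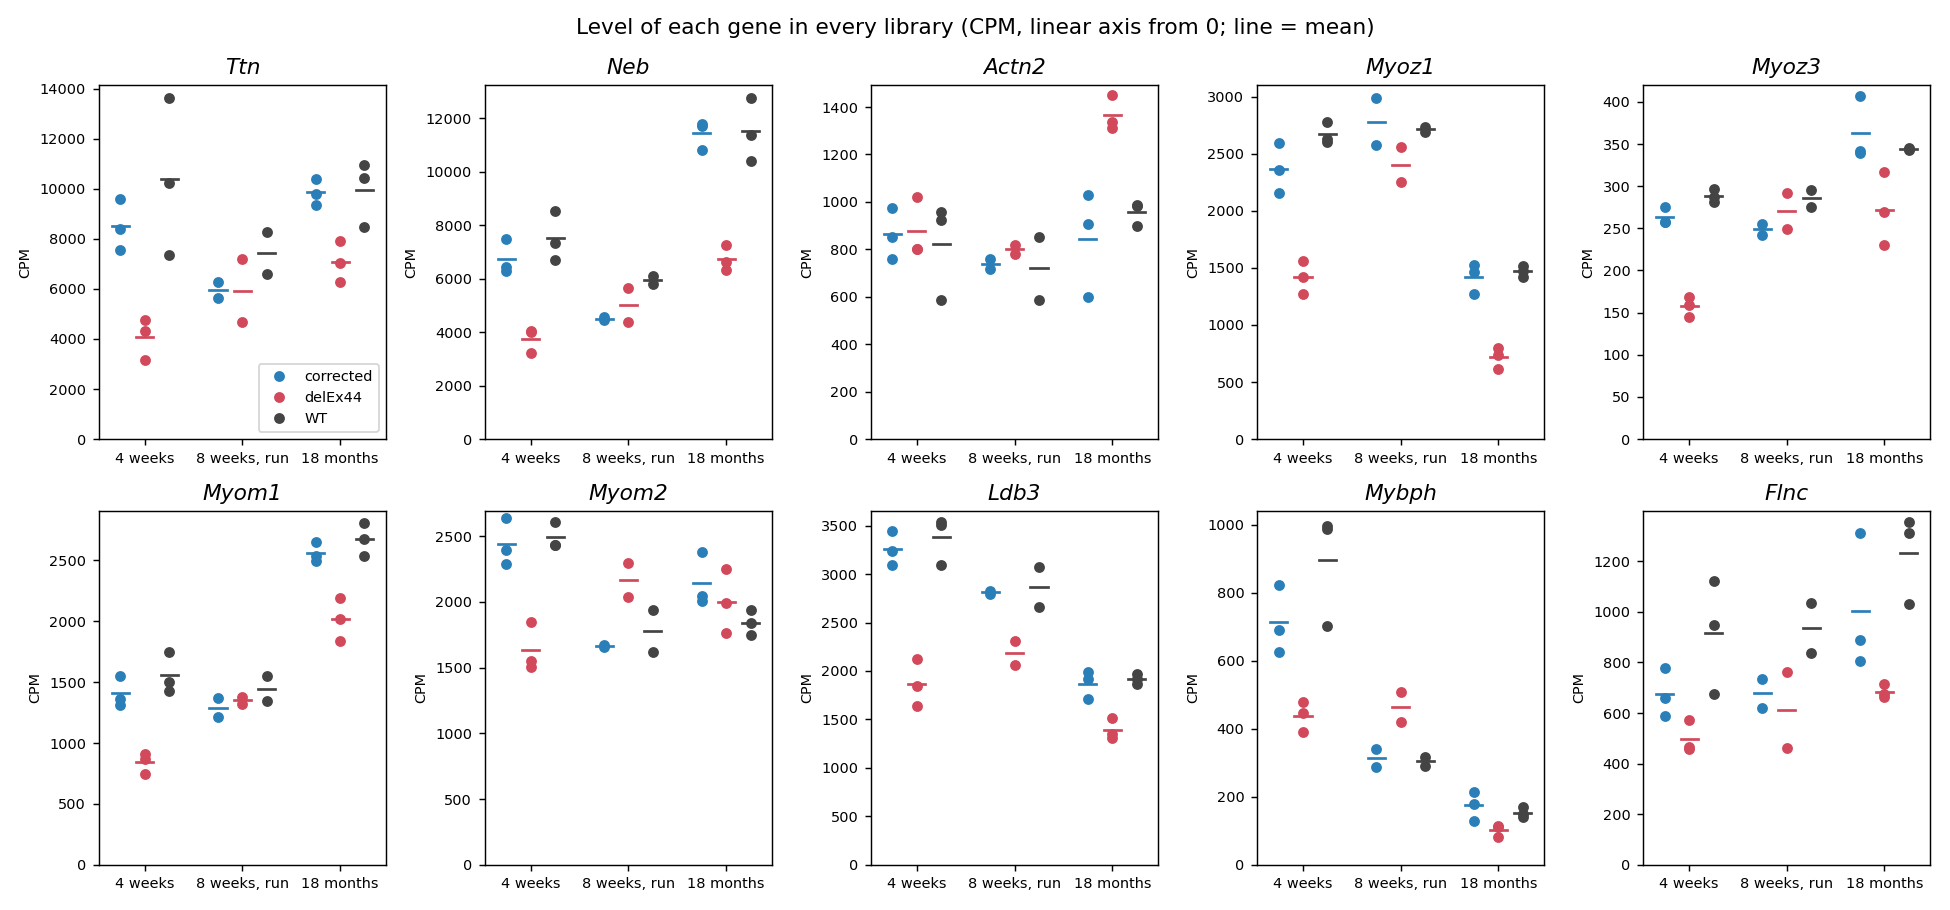
Level of each of the 10 genes in every library, in CPM on a linear axis from 0, with 1 point per library and a line at the group mean, for corrected, delEx44 and WT muscle at 4 weeks, at 8 weeks after running and at 18 months. At 4 weeks the delEx44 points lie below the corrected and WT points in every panel but Actn2, and at 18 months the delEx44 points of Actn2 lie above both other genotypes.

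At 4 weeks, 9 of the 10 genes fell in delEx44 muscle relative to WT and none rose, and Actn2 did not pass. Over all 15013 genes tested, 50.2% changed and 25% fell. The median log2 change was −0.88 over the 10 members and −0.004 over all genes tested. In all 9 genes every delEx44 library lay below every WT library, which was also the case in one direction or the other for 58.6% of all genes. The 9 falls all held without the third WT library.

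Of the giant proteins, Ttn had the largest fall of all 10 members. It stood at 3159, 4314 and 4743 CPM in delEx44 muscle, against 13620, 7337 and 10220 CPM in WT muscle. The 2 groups did not overlap, and the WT libraries differed from one another by more than the delEx44 libraries did. It fell to 39.2% of the WT mean (log2 −1.35 ± 0.23 SE, adjusted p = 0.00046, edgeR quasi-likelihood F-test). Neb stood at 3218, 4027 and 4009 CPM in delEx44 muscle, against 8537, 6715 and 7341 CPM in WT muscle. It fell to 49.8% of the WT mean (log2 −1.005 ± 0.128, adjusted p = 3.6e-05). Over the 144 genes in the top 1% of exonic length the median log2 change was −0.16, against −0.005 over all genes with a length. The part of transcript length in the Ttn and Neb results was not tested.

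Of the Z-disc genes, Myoz1, which is mainly a fast fibre gene, stood at 1270, 1416 and 1564 CPM in delEx44 muscle, against 2781, 2602 and 2631 CPM in WT muscle (log2 −0.91 ± 0.10, adjusted p = 1.2e-05). Myoz3 stood at 145, 169 and 159 CPM in delEx44 muscle, against 296, 281 and 287 CPM in WT muscle. Its fall to 54.7% of the WT mean had the smallest adjusted p of the 10 (2.1e-06, log2 −0.87 ± 0.076). Ldb3, a PDZ-LIM protein that binds alpha-actinin, averaged 1867 ± 240 CPM in delEx44 and 3381 ± 246 CPM in WT muscle (SD, n = 3 each, log2 −0.86 ± 0.10). Flnc averaged 499 ± 63.6 CPM in delEx44 and 914.5 ± 226 CPM in WT muscle (SD, n = 3 each). It fell by 0.87 on the log2 scale (SE 0.21, adjusted p = 0.0049), and its call was lost when libraries were scaled to total counts (log2 −0.48, adjusted p = 0.053).

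Actn2, the cross-linker of the Z-disc, did not pass. It stood at 804, 803 and 1022 CPM in delEx44 muscle, against 925, 956 and 586 CPM in WT muscle, and the groups overlapped (log2 0.091 ± 0.18, adjusted p = 0.70). The lowest of these values came from the third WT library, which also had the lowest slow fibre sum. Without that library the log2 difference was −0.10 (adjusted p = 0.61). Under total-count scaling Actn2 passed as higher in delEx44 muscle (log2 0.49, adjusted p = 0.024). That scaling moved the median of all genes tested to 0.39. The ratio of Actn2 to Neb within a library, both per kilobase, does not depend on scaling. It was 1.40 to 1.78 in delEx44 muscle and 0.559 to 0.997 in WT muscle, and these ranges did not overlap. The ratio was not tested, and 58.6% of single genes were without overlap in this comparison. It does not show which of the 2 genes moved, and Neb was called lower in delEx44 muscle here.

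Of the M-band genes, Myom1, which cross-links thick filaments, averaged 841 ± 86.8 CPM in delEx44 and 1561 ± 165 CPM in WT muscle (SD, n = 3 each, log2 −0.89 ± 0.11, adjusted p = 2.4e-05). Myom2, the M-protein of fast fibres, had the smallest fall that passed, with 1502, 1551 and 1850 CPM in delEx44 muscle against 2609, 2432 and 2435 CPM in WT muscle (log2 −0.61 ± 0.10, adjusted p = 0.00028). Mybph, a relative of the myosin binding proteins C, stood at 390, 446 and 478 CPM in delEx44 muscle, against 703, 988 and 995 CPM in WT muscle (log2 −1.03 ± 0.15, adjusted p = 9e-05).

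Markers of other cells and of the fibre itself moved with these genes. The 7 fibre markers summed to 70500 to 88600 CPM in delEx44 muscle and to 152000 to 170000 CPM in WT muscle, so their mean sum was 50.4% of WT, beside 39.2% to 65.6% of WT for the 9 members that fell. The 8 macrophage markers summed to 1170 to 1690 CPM in delEx44 and 198 to 248 CPM in WT muscle. The 7 markers of regenerating fibres summed to 467 to 1200 CPM in delEx44 and 39.0 to 60.6 CPM in WT muscle. In bulk muscle, fewer fibre nuclei among all cells and less RNA of a gene per fibre cannot be told apart. The part of these markers in the falls was not tested.

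In corrected muscle at 4 weeks, 8 of the 10 genes were higher than in delEx44 muscle and none was lower, while 46.3% of all genes tested changed and 22.1% rose. Corrected and WT muscle are set against the same delEx44 libraries here. Ttn stood at 8376, 7535 and 9572 CPM in corrected muscle, above the 3 delEx44 libraries given before (log2 1.06 ± 0.23, adjusted p = 0.0027). Neb stood at 6421, 6271 and 7467 CPM in corrected muscle (log2 0.84 ± 0.13, adjusted p = 0.00018). Myoz1, Myoz3, Myom1, Ldb3 and Mybph rose by 0.70 to 0.80 on the log2 scale, and Myom2 by 0.58. Flnc, at 675 ± 96.7 CPM in corrected muscle (SD, n = 3), lay above delEx44 in every library, as 58.7% of all genes did in one direction or the other. It did not pass (log2 0.44 ± 0.21, adjusted p = 0.11), except with only the groups compared in the fit (adjusted p = 0.022). Actn2, at 863 ± 108 CPM in corrected muscle (SD, n = 3), did not pass either (log2 −0.022 ± 0.18). The call for Mybph was lost under total-count scaling (log2 0.38, adjusted p = 0.052). Of the fibre markers 7 of 7 rose, with sums of 135000 to 154000 CPM in corrected muscle. The macrophage markers fell in 8 of 8 cases, to sums of 336 to 450 CPM in corrected muscle, and the regenerating fibre markers in 7 of 7, to 60.4 to 72.7 CPM. The part of these markers in the rises was not tested.

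Against WT, no member of corrected muscle passed at 4 weeks, and 0% of all genes tested did by the edgeR quasi-likelihood F-test, with 1497 genes at an unadjusted p under 0.05 and 212 called by the DESeq2 Wald test. The count of members was 0 under each alternative run. Member means in corrected muscle lay between 73.8% of WT for Flnc and 105% for Actn2. Mybph had the smallest unadjusted p (0.041, log2 −0.33 ± 0.15, adjusted p = 0.46). All corrected libraries of Myoz1 and Myoz3 lay below all WT libraries, with log2 differences of −0.17 ± 0.099 and −0.13 ± 0.075. That is 2 of the 10 members, and 15.4% of all genes were without overlap in this comparison.

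**Figure D2:**
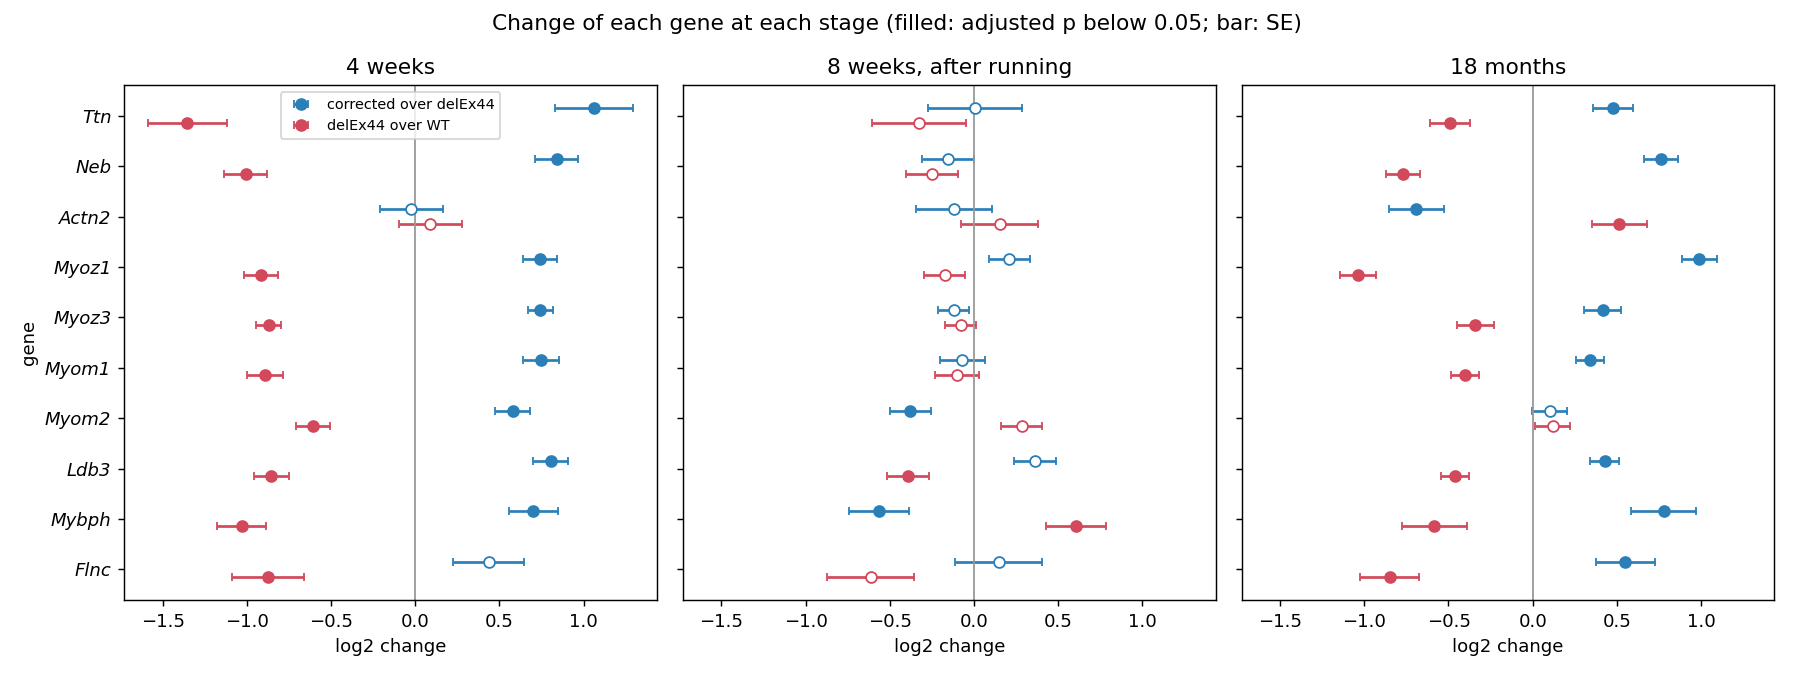
Log2 change of each of the 10 genes with its SE, for corrected over delEx44 muscle and for delEx44 over WT muscle, at 4 weeks, after running and at 18 months; filled points passed an adjusted p of 0.05, and the 3 panels share 1 log2 axis. At 4 weeks 9 of 10 delEx44 points are filled below 0, while after running 2 points of each comparison are filled.

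After running, Ldb3 fell and Mybph rose in delEx44 relative to WT muscle, and the other 8 genes did not pass, while 29.1% of all genes tested changed, 14.9% upward and 14.2% downward. With 2 libraries a group this comparison is less precise, and both calls depended on single libraries. Ldb3 stood at 2063 and 2308 CPM in delEx44 muscle, against 2658 and 3072 CPM in WT muscle (log2 −0.39 ± 0.13, adjusted p = 0.034). Without any 1 of 3 libraries, delEx44 replicate 1 or 2 or WT replicate 2, this call was lost, as it was under total-count scaling and with only the groups compared in the fit, with log2 changes of −0.49 to −0.26 over all alternatives. Mybph stood at 507 and 421 CPM in delEx44 muscle, against 291 and 318 CPM in WT muscle, so the order of the genotypes was the opposite of that at 4 weeks (log2 0.61 ± 0.18, adjusted p = 0.022). Its call was lost without WT replicate 1, WT replicate 2 or delEx44 replicate 1. The log2 change lay between 0.47 and 0.74 over all its alternatives.

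Among the other 8 genes, Ttn stood at 4658 and 7197 CPM in delEx44 muscle, against 8267 and 6599 CPM in WT muscle, and the groups overlapped. Neb, Myoz1 and Flnc lay below WT in each delEx44 library and Myom2 above it, which with Ldb3 and Mybph makes 6 of the 10 members, while 63.7% of all genes were without overlap. The means of Neb, Myoz1 and Flnc were 84.0%, 88.6% and 65.4% of WT, with adjusted p values of 0.25, 0.31 and 0.098. Flnc passed in the DESeq2 Wald test (log2 −0.61, adjusted p = 0.045) and without delEx44 replicate 2 (log2 −1.02, adjusted p = 0.027). Myom2 stood at 2035 and 2293 CPM in delEx44 muscle, against 1615 and 1939 CPM in WT muscle (log2 0.28 ± 0.12, adjusted p = 0.10), and passed as higher under total-count scaling (log2 0.42, adjusted p = 0.0049). The fibre marker sum was 106000 to 118000 CPM in delEx44 and 135000 to 143000 CPM in WT muscle after running, and the macrophage sum was 824 to 839 CPM in delEx44 and 193 to 199 CPM in WT muscle. The part of these markers in the results after running was not tested.

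Whether the genotype difference itself changed was tested as an interaction, which passed upward for 5 of the 10 genes and downward for none. These were Mybph, Myom2, Myoz3, Myom1 and Myoz1, while 0.879% of all genes tested passed, 0.586% upward and 0.293% downward. The log2 value was 1.64 ± 0.23 for Mybph (adjusted p = 0.013), 0.89 ± 0.16 for Myom2 (adjusted p = 0.028) and 0.79 ± 0.12 for Myoz3 (adjusted p = 0.017). It was 0.79 ± 0.17 for Myom1 and 0.74 ± 0.16 for Myoz1 (adjusted p = 0.047 for both). The calls for Myoz1 and Myom1 were lost in 9 of the 10 fits that left out 1 library and that for Myom2 in 6, and those for Mybph and Myoz3 only without the first WT run library, with adjusted p = 0.089 and 0.095. Without that library no member passed, without the third 4-week WT library 3 did, and with only the groups of the comparison 2 did. Ttn and Neb had values of similar size (1.02 ± 0.36 and 0.76 ± 0.20) that did not pass, with adjusted p = 0.17 and 0.09. Both passed in the DESeq2 Wald test (adjusted p = 0.044 and 0.0059).

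The run group was also set against the 4-week group within each genotype. In delEx44 muscle 5 of the 10 genes were higher after running and none was lower, while 35.7% of all genes tested changed, 16.4% upward and 19.3% downward. Myoz3 had 249.5 and 292 CPM after running in delEx44 muscle, against 145, 169 and 159 CPM at 4 weeks (log2 0.78 ± 0.083, adjusted p = 4.7e-05). Myoz1 and Myom1 rose by 0.76 and 0.68 on the log2 scale, and Neb and Myom2 by 0.42 and 0.41. Every run library of these 5 genes lay above every 4-week library, and 58.8% of all genes were without overlap in one direction or the other. Without delEx44 run replicate 2 the calls for Neb and Myom2 were lost (adjusted p = 0.33 and 0.11). The call for Neb was also lost under total-count scaling, with only the groups compared and without the first 4-week library (adjusted p = 0.09, 0.082 and 0.10). Ldb3, at log2 0.23 ± 0.12, passed without the third 4-week library only (log2 0.33, adjusted p = 0.037).

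Markers of other cells also differed between run and 4-week delEx44 muscle. The macrophage markers fell in 8 of 8 cases, with sums of 824 to 839 CPM after running against 1170 to 1690 CPM at 4 weeks. The regenerating fibre markers fell in 6 of 7, with sums of 199 to 319 CPM after running against 467 to 1200 CPM at 4 weeks. The fibre markers rose in 4 of 7, with sums of 106000 to 118000 CPM after running against 70500 to 88600 CPM at 4 weeks. Fibroblast markers were lower after running in each genotype, 6 of 6 in corrected, 4 of 6 in delEx44 and 5 of 6 in WT muscle. The part of these markers in the changes with running was not tested.

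In WT muscle 2 of the 10 genes were lower after running and none was higher, while 27.6% of all genes tested changed, 13.4% upward and 14.2% downward. Mybph stood at 291 and 318 CPM after running in WT muscle, against 703, 988 and 995 CPM at 4 weeks (log2 −1.56 ± 0.17, adjusted p = 8.7e-05). Myom2 stood at 1615 and 1939 CPM after running, against 2609, 2432 and 2435 CPM at 4 weeks (log2 −0.49 ± 0.11, adjusted p = 0.0071). Its call was lost without WT run replicate 1 (log2 −0.36, adjusted p = 0.093). Without the third 4-week WT library both calls held, with log2 changes of −1.47 for Mybph and −0.50 for Myom2 (adjusted p = 0.00033 and 0.013).

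In corrected muscle Mybph, Myom2 and Neb, 3 of the 10 genes, were lower after running and none was higher, while 25.8% of all genes tested changed, 12.3% upward and 13.5% downward. Mybph stood at 286 and 340 CPM after running in corrected muscle, against 689, 823 and 626 CPM at 4 weeks (log2 −1.19 ± 0.17, adjusted p = 0.00053). Myom2 stood at 1658 and 1671 CPM after running, against 2288, 2393 and 2636 CPM at 4 weeks (log2 −0.55 ± 0.11, adjusted p = 0.0041). Neb stood at 4465 and 4549 CPM after running, against 6421, 6271 and 7467 CPM at 4 weeks (log2 −0.58 ± 0.14, adjusted p = 0.011). The call for Neb was lost without corrected run replicate 1 (adjusted p = 0.091).

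**Figure D3:**
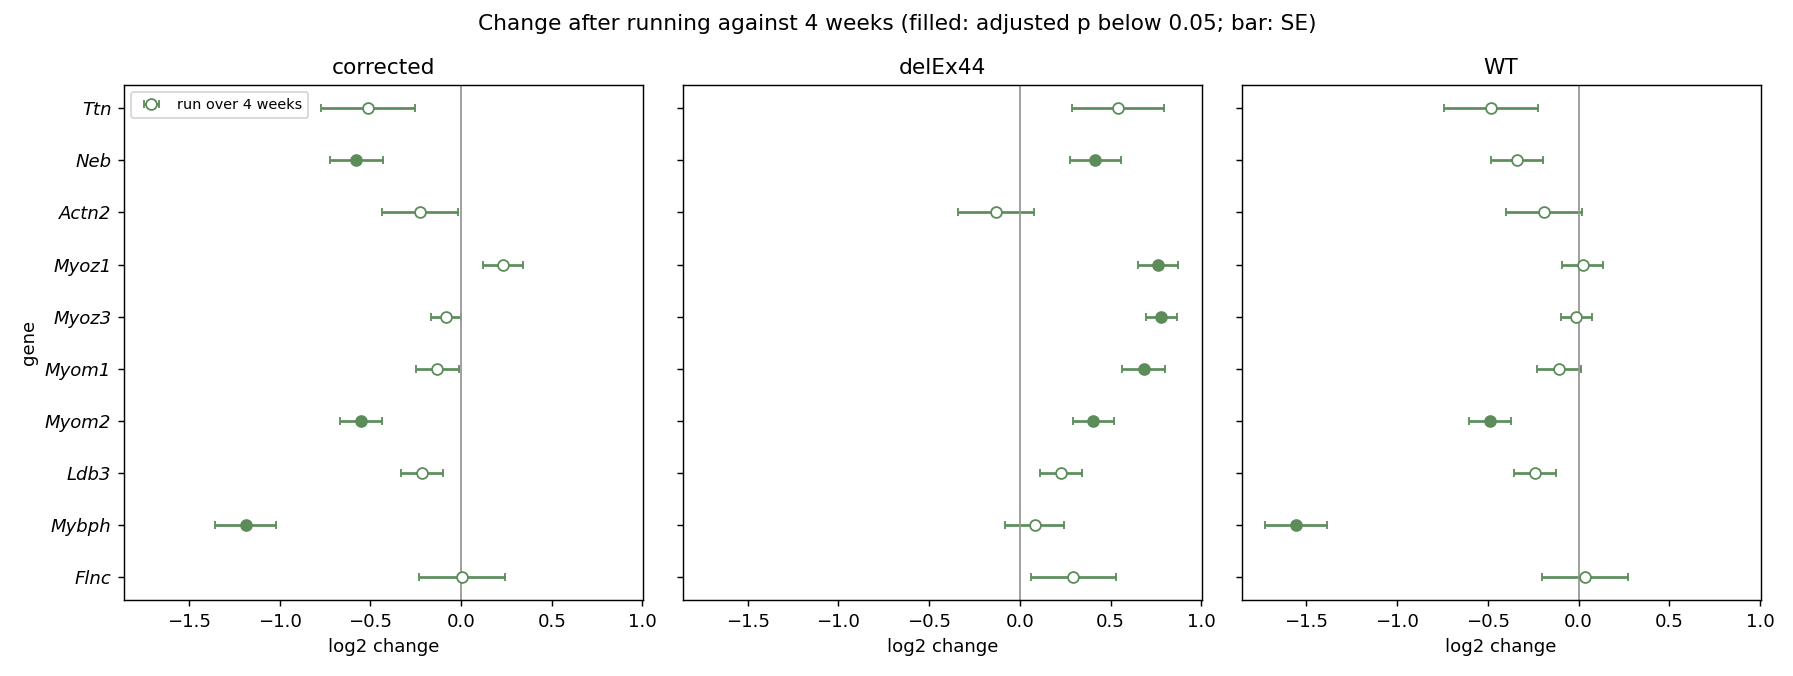
Log2 change of each of the 10 genes with its SE between the run group at 8 weeks and the sedentary group at 4 weeks, in corrected, delEx44 and WT muscle; filled points passed an adjusted p of 0.05. In delEx44 muscle 5 filled points lie above 0, and in corrected and WT muscle the filled points lie below 0, with Mybph the lowest at −1.19 and −1.56.

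Corrected muscle after running had 2 of the 10 genes below delEx44 muscle and none above it, while 23.2% of all genes tested changed, 10.8% upward and 12.4% downward. Myom2 stood at 1658 and 1671 CPM in corrected muscle, against 2035 and 2293 CPM in delEx44 muscle (log2 −0.38 ± 0.12, adjusted p = 0.042). Mybph stood at 286 and 340 CPM in corrected muscle, against 507 and 421 CPM in delEx44 muscle (log2 −0.57 ± 0.18, adjusted p = 0.036). Both calls were lost when only the groups compared were fitted, without either delEx44 library and without corrected replicate 1, and 0 to 1 members were called when 1 library was left out. Ldb3, at 2824 and 2796 CPM in corrected muscle against 2063 and 2308 CPM in delEx44 muscle, did not pass (log2 0.36 ± 0.13, adjusted p = 0.054), except in the DESeq2 Wald test (adjusted p = 0.016). The macrophage markers were lower in corrected muscle for 8 of 8 and the regenerating fibre markers for 7 of 7, with sums of 213 to 295 and 38.9 to 61.9 CPM, and their part in these results was not tested. Against WT no member of corrected muscle passed after running, while 0.02% of all genes tested did, 0.00666% upward and 0.0133% downward. The edgeR quasi-likelihood F-test gave 2 members at an unadjusted p under 0.05, Neb and Myoz3 (log2 −0.40 ± 0.16 and −0.20 ± 0.092). Of all genes, 1455 of 15013 were under that threshold. The DESeq2 Wald test called no member and 77 genes.

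The interaction of corrected against delEx44 with running passed downward for 5 of the 10 genes and upward for none, while 1.42% of all genes tested passed, 0.406% upward and 1.01% downward. It shares the delEx44 libraries with the interaction above. The log2 value was −1.27 ± 0.23 for Mybph, −0.99 ± 0.20 for Neb and −0.96 ± 0.16 for Myom2. It was −0.86 ± 0.12 for Myoz3 and −0.81 ± 0.17 for Myom1, and the adjusted p of the 5 lay between 0.014 and 0.037. Leaving out 1 library gave 0 to 5 members called. Without the corrected run replicate 3 none was called, and the call for Myoz3 was lost in that fit only (adjusted p = 0.086). Ttn and Myoz1 passed in the DESeq2 Wald test (adjusted p = 0.035 and 0.017) but not by edgeR.

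At 18 months, 8 of the 10 genes were lower in delEx44 than in WT muscle and Actn2 was higher, while 52.7% of all genes tested changed, 28.8% upward and 23.8% downward. The median log2 change was −0.48 over the 10 members and 0.048 over all genes tested. Myoz1 had the largest fall, with 613, 795 and 739 CPM in delEx44 muscle against 1520, 1471 and 1420 CPM in WT muscle (log2 −1.04 ± 0.11, adjusted p = 4.5e-05). Neb stood at 6335, 7277 and 6629 CPM in delEx44 muscle, against 11370, 10400 and 12770 CPM in WT muscle (log2 −0.77 ± 0.10, adjusted p = 0.00017). Flnc stood at 673, 715 and 665 CPM in delEx44 muscle, against 1310, 1030 and 1355 CPM in WT muscle (log2 −0.85 ± 0.18, adjusted p = 0.0032). In all 8 genes that fell every delEx44 library lay below every WT library, and 66.2% of all genes were without overlap in one direction or the other.

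Other markers moved with these genes at 18 months. The fibre markers summed to 51100 to 61300 CPM in delEx44 and 112000 to 121000 CPM in WT muscle, so their mean sum was 48.2% of WT, and 4 of 7 fell. The regenerating fibre sum was 186 to 248 CPM in delEx44 and 24.6 to 28.0 CPM in WT muscle, and 7 of 7 rose. The fibroblast sum was 3280 to 4050 CPM in delEx44 and 1960 to 2110 CPM in WT muscle (6 of 6 rose). The adipocyte sum was 1030 to 1280 CPM in delEx44 and 632 to 730 CPM in WT muscle (3 of 5 rose). The part of these markers in the changes at 18 months was not tested.

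Smaller falls were seen for the other genes that passed at 18 months. Ttn stood at 6291, 7898 and 7034 CPM in delEx44 muscle, against 10440, 8475 and 10940 CPM in WT muscle (log2 −0.49 ± 0.12, adjusted p = 0.0059). Ldb3 fell by 0.46, Myom1 by 0.40, Myoz3 by 0.34 and Mybph by 0.58 on the log2 scale, with adjusted p of 0.0014, 0.0025, 0.027 and 0.033. The calls for Myoz3 and Mybph were lost in 5 and 4 of the 6 fits that left out 1 library. Under total-count scaling 3 of the falls kept their call, those of Neb, Myoz1 and Flnc, while Actn2 and Myom2 were called higher. That fit had a median of 0.35 over all genes and called 1301 of 14337 genes lower and 7465 higher. Myom2 did not pass in the main fit, at 2000 ± 243 CPM in delEx44 and 1840 ± 97.2 CPM in WT muscle (SD, n = 3 each, log2 0.12 ± 0.10, adjusted p = 0.36).

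Actn2 at 18 months stood at 1337, 1450 and 1311 CPM in delEx44 muscle, against 983, 897 and 989 CPM in WT muscle. Every delEx44 library lay above every WT library, and Actn2 rose to 143% of the WT mean (log2 0.51 ± 0.16, adjusted p = 0.025). The log2 change was positive in each alternative, between 0.47 and 0.82, but the call was lost in 5 of the 6 fits that left out 1 library. The ratio of Actn2 to Neb within a library, per kilobase, was 1.38 to 1.48 in delEx44 muscle and 0.542 to 0.605 in WT muscle. Neb was called lower in delEx44 muscle at 18 months, so the ratio does not show the change of Actn2 alone. After running this ratio overlapped between the 2 genotypes, at 0.969 to 1.31 in delEx44 and 0.709 to 0.977 in WT muscle. Corrected muscle after running had ratios of 1.12 to 1.17, inside the delEx44 range. The genotype difference in Actn2 was not shown to differ between 18 months and 4 weeks (interaction log2 0.40 ± 0.27, adjusted p = 0.38).

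Corrected muscle at 18 months had 8 of the 10 genes above delEx44 muscle and Actn2 below it, while 41% of all genes tested changed, 19.6% upward and 21.4% downward. Both comparisons use the same delEx44 libraries. Actn2 stood at 601, 1028 and 906 CPM in corrected muscle, below the 3 delEx44 libraries (log2 −0.69 ± 0.16, adjusted p = 0.0082). Neb stood at 11780, 11710 and 10810 CPM in corrected muscle (log2 0.76 ± 0.10, adjusted p = 3e-04), and Myoz1 at 1528, 1461 and 1273 CPM (log2 0.99 ± 0.11, adjusted p = 9.5e-05). Ttn, Myoz3, Myom1, Ldb3 and Flnc rose by 0.34 to 0.55, and Mybph by 0.78. Flnc stood at 807, 1311 and 888 CPM in corrected muscle, with the highest value in replicate 2 (adjusted p = 0.031 against delEx44). Its call was lost in each fit that left out 1 delEx44 library. The count of members called stayed at 9 without any 1 of the corrected libraries. Under total-count scaling the calls for Ttn, Myoz3, Myom1, Ldb3 and Flnc were lost, with log2 changes of 0.21, 0.14, 0.07, 0.15 and 0.27. The call for Myoz3 was also lost without delEx44 replicate 1, those for Myoz3 and Mybph under the replicate block (adjusted p = 0.098 and 0.052), and that for Flnc with only the groups compared (adjusted p = 0.052). The regenerating fibre markers were lower in corrected than in delEx44 muscle for 7 of 7, the fibroblast markers for 5 of 6 and the adipocyte markers for 4 of 5. The fibre sum was 97800 to 110000 CPM in corrected muscle, with 3 of 7 markers higher and 1 lower. The macrophage sum ran from 180 to 718 CPM in corrected muscle, and thus overlapped the 648 to 733 CPM of delEx44 muscle. The part of these markers was not tested.

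Slow fibre markers moved with Actn2 among the corrected libraries at 18 months. The corrected library with the lowest Actn2 level, replicate 1, had 0.811 CPM of Myh7, the myosin heavy chain of slow fibres, and the one with the highest, replicate 2, had 406 CPM. Myh7 was at 176 to 212 CPM in delEx44 and 168 to 214 CPM in WT muscle. The slow fibre sums overlapped, at 1116 to 1410 CPM in delEx44 and 1005 to 1152 CPM in WT muscle. This order did not hold in the other genotypes at 18 months. The delEx44 library with the lowest slow fibre sum, 1116 CPM, had the highest Actn2 level, 1450 CPM. The WT library with the lowest sum, 1005 CPM, had the highest level too, 989 CPM. At 4 weeks the corrected libraries kept the order. The delEx44 libraries of 4 weeks did not, with 1022 CPM at a sum of 405 CPM and 804 CPM at 596 CPM. After running the corrected and delEx44 libraries kept it. The first WT run library went against it, with 588 CPM of Actn2 at a slow fibre sum of 1224 CPM. The fast fibre sum was 57600 to 71800 CPM in delEx44 and 133000 to 142000 CPM in WT muscle, with Myh4 at 12100 to 17600 CPM in delEx44 and 48500 to 56700 CPM in WT muscle. The 9 fast markers include Actn3, the paralogue of Actn2 that is restricted to fast fibres. Actn3 averaged 2995 ± 434 CPM in delEx44 and 6217 ± 359 CPM in WT muscle at 18 months (SD, n = 3 each, log2 −1.05 ± 0.11, adjusted p = 4.9e-05). The part of fibre types in the Actn2 result was not tested.

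**Figure D4:**
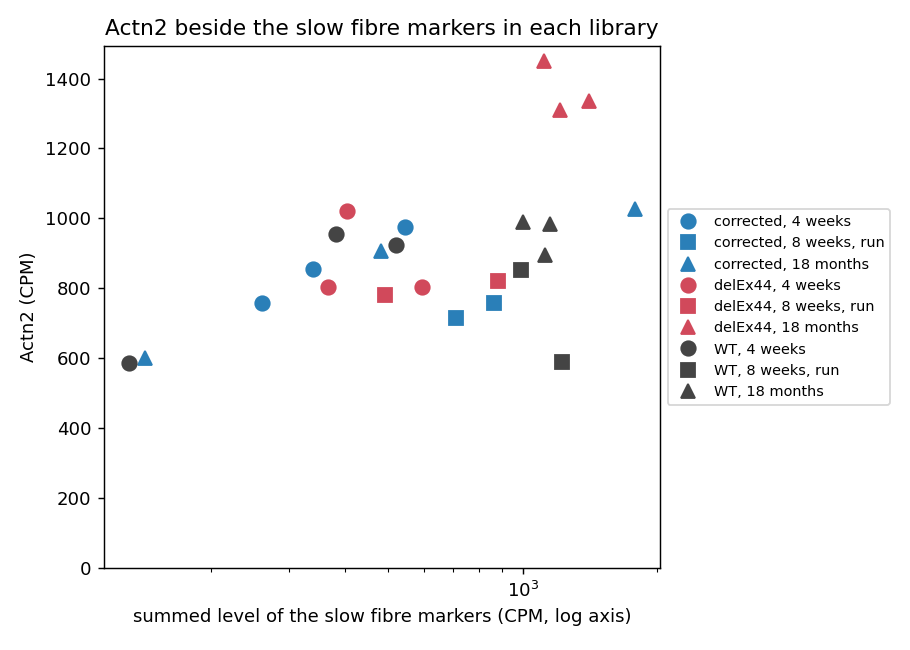
Level of Actn2 in CPM (vertical, linear from 0) beside the summed level of the 7 slow fibre markers in CPM (horizontal, log axis), with 1 point per library, coloured by genotype and shaped by stage. The 3 delEx44 libraries at 18 months lie highest, at 1311 to 1450 CPM, at slow fibre sums of 1116 to 1410 CPM, and the 2 libraries with the lowest slow fibre sums (131 and 142 CPM) have Actn2 at 586 and 601 CPM, while a WT run library at 1224 CPM has 588 CPM.

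Against WT at 18 months no member of corrected muscle passed, while 4.76% of all genes tested did, 2.34% upward and 2.43% downward. The edgeR quasi-likelihood F-test also gave 0 members at an unadjusted p under 0.05, while 3537 of 14337 genes were under it. The DESeq2 Wald test called no member and 1638 genes. Ttn, Neb and Ldb3 were within 0.035 of WT on the log2 scale, with SE of 0.085 to 0.12. Flnc was the farthest below WT, at 81.3% of the WT mean (log2 −0.30 ± 0.17, adjusted p = 0.32). Without corrected replicate 2, Flnc passed as lower than WT (log2 −0.54, adjusted p = 0.0071), and without replicate 1 or 3 no member passed. Myom2 lay above WT in every corrected library, at 2381, 2047 and 2007 CPM in corrected against 1835, 1746 and 1940 CPM in WT muscle, without passing (log2 0.22 ± 0.10, adjusted p = 0.22). It was the 1 member without overlap, against 25% of all genes.

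The difference between delEx44 and WT muscle was smaller at 18 months than at 4 weeks for 3 of the 10 genes, by interaction, and larger for none, while 10.9% of all genes tested passed, 7.02% upward and 3.91% downward. The 3 were Myom2 (log2 0.71 ± 0.15, adjusted p = 0.0051), Myoz3 (0.51 ± 0.14, adjusted p = 0.025) and Myom1 (0.47 ± 0.14, adjusted p = 0.044). Leaving out 1 library gave 1 to 5 members called, and 2 were called without the third 4-week WT library. The call for Myom2 held in all 17 alternatives, that for Myoz3 was lost in 4 of them and that for Myom1 in 10 of them, with adjusted p up to 0.069 and 0.11. The ages were deposited as separate tables, so age and table cannot be told apart. For Ttn the value was 0.84 ± 0.27 without passing (adjusted p = 0.056), though it passed in the DESeq2 Wald test (adjusted p = 0.023) and without the second WT or the third delEx44 library of 4 weeks (adjusted p = 0.011 and 0.048). For Myoz1, which fell at both ages, it was −0.14 ± 0.15. The corrected against delEx44 difference changed with age for 1 member, Myom2 (log2 −0.45 ± 0.15, adjusted p = 0.046), while 15.9% of all genes tested passed, 7.75% upward and 8.12% downward. That call was lost with DESeq2 size factors, with only the groups compared and in 9 of the 12 fits that left out 1 library. It held without corrected replicate 1 of 18 months (log2 −0.52, adjusted p = 0.033) and was lost without replicate 2 or 3 (adjusted p = 0.07 and 0.099). Without replicate 2, Actn2 passed in its place (log2 −0.81, adjusted p = 0.046).

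Within the M-band pair, the ratio of Myom2 to Myom1 per kilobase was higher in delEx44 than in WT muscle at each stage. It was 2.11 to 2.40 in delEx44 and 1.76 to 2.01 in WT muscle at 4 weeks, 1.82 to 1.96 and 1.42 to 1.48 after running, and 1.13 to 1.21 and 0.811 to 0.817 at 18 months. Corrected muscle lay at 2.00 to 2.08, 1.43 to 1.63 and 0.912 to 1.11 at the 3 stages. The delEx44 and WT ranges did not overlap at any stage. The ratio was not tested, and no share over other gene pairs is at hand. Of single genes, 58.6%, 63.7% and 66.2% were without overlap between delEx44 and WT muscle at the 3 stages.

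Of 62 other sarcomere genes tested, in 4 lists, 36 fell and 4 rose in delEx44 against WT muscle at 4 weeks, with a median log2 change of −0.54. Over all genes tested 25% fell, 25.2% rose and the median was −0.004. Among 20 Z-disc partners 14 fell and none rose. Xirp2, an actin-binding protein of attachment sites, averaged 1292 ± 176 CPM in delEx44 and 2640 ± 137 CPM in WT muscle (SD, n = 3 each, log2 −1.03 ± 0.10). Actn3 fell by 1.19 and Mypn, which ties nebulin to alpha-actinin, by 0.72. Among 14 M-band and thick filament genes 9 fell and 1 rose. Cmya5 fell by 1.00 on the log2 scale, and Ckm, the muscle creatine kinase, by 0.97. Of 16 titin-associated ankyrin repeat proteins, proteases and chaperones 6 fell and 3 rose, beside 50.2% of all genes that changed. Capn3, a protease that binds titin, was at 131 ± 9.62 CPM in delEx44 and 261 ± 29.4 CPM in WT muscle (SD, n = 3 each, log2 −0.998 ± 0.087). Smyd1 and Unc45b, which assist myosin folding, fell by 0.76 and 0.63. Of 12 thin filament genes 7 fell and none rose, among them the pointed-end capping gene Tmod1 (log2 −0.87 ± 0.071), Tpm1 (log2 −0.88 ± 0.11) and Acta1 (log2 −0.79 ± 0.10).

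Of 7 paralogues of the members that act outside skeletal sarcomeres, 5 rose in delEx44 against WT muscle at 4 weeks and none fell, with a median log2 change of 0.30, while 25.2% of all genes tested rose. Actn1, the non-muscle alpha-actinin, averaged 40.6 ± 1.68 CPM in delEx44 and 24.2 ± 0.407 CPM in WT muscle (SD, n = 3 each, log2 0.75 ± 0.059, adjusted p = 1.2e-06). Flna, the widely expressed filamin, averaged 272 ± 37.8 CPM in delEx44 and 187 ± 7.26 CPM in WT muscle (SD, n = 3 each, log2 0.54 ± 0.10), while its paralogue Flnc fell. Pdlim2 rose by 0.84. At 18 months 6 of the 7 rose, beside 28.8% of all genes tested, Pdlim2 by 1.01, Actn1 by 0.51 and Flna by 0.43. The macrophage sums given above were higher in the same libraries, and at 18 months they were 648 to 733 CPM in delEx44 and 161 to 235 CPM in WT muscle. The part of other cells in these rises was not tested.

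After running, 13 of the 62 list genes fell and 3 rose in delEx44 against WT muscle, with a median log2 change of −0.19. Over all genes tested 14.2% fell and 14.9% rose, 29.1% in all, so the number of list genes called was near the background. Ankrd1, a stress-responsive ankyrin repeat protein that binds titin, averaged 75.2 ± 3.16 CPM in delEx44 and 7.74 ± 1.39 CPM in WT muscle (SD, n = 2 each, log2 3.28 ± 0.51, adjusted p = 0.0012). It stood at 23.2 ± 13.3 CPM in corrected muscle, below delEx44 (log2 −1.69 ± 0.47, adjusted p = 0.027). Xirp2 and Nrap, both actin-associated, fell by 0.47 and 0.63 in delEx44 against WT muscle, and Bag3, a co-chaperone of filamin turnover, by 0.43. Obsl1 and Fhl2 rose by 0.56 and 1.17, the second at levels of 5.03 and 2.23 CPM in delEx44 and WT muscle.

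At 18 months 34 of the 62 genes fell and 8 rose in delEx44 against WT muscle, with a median log2 change of −0.32. Over all genes tested 23.8% fell, 28.8% rose and the median was 0.048. Mybpc2, the fast myosin binding protein C, fell by 1.36 and Cmya5 by 1.17, and Trim55, a titin-binding ubiquitin ligase, by 0.86. Capn3 fell by 1.04, Unc45b by 0.99 and Tmod4 by 1.00. Actc1, the cardiac actin that is also expressed in developing and regenerating skeletal muscle, averaged 296 ± 44.8 CPM in delEx44 and 36.5 ± 1.15 CPM in WT muscle (SD, n = 3 each, log2 3.02 ± 0.24, adjusted p = 4.5e-05). Corrected muscle at 18 months had 3 of the 62 genes above WT and 4 below it, beside 2.34% and 2.43% of all genes tested. Of the lower genes, 2 were in the titin-associated list and 2 in the thin filament list. Calls in this comparison depended on the fit. Over all genes, 683 were called in the main fit, 16 with only the groups compared and 9 to 2859 with 1 library left out. The 3 higher genes follow. Actc1 stood at 160 ± 55.4 CPM in corrected muscle (SD, n = 3, log2 2.13 ± 0.23 against WT, adjusted p = 0.0098). Igfn1, which binds Z-disc proteins, averaged 159 ± 59.6 CPM in corrected and 44.8 ± 5.41 CPM in WT muscle (SD, n = 3 each, log2 1.82 ± 0.27, adjusted p = 0.022). Ankrd1 averaged 99.9 ± 36.3 CPM in corrected and 34.7 ± 6.11 CPM in WT muscle (SD, n = 3 each, log2 1.53 ± 0.28, adjusted p = 0.031).

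Likeness was measured as the root mean square difference of centred log2 group means over the 9 groups, among 11345 genes with at least 5 CPM in a group. Myoz3 and Myom1 were each other's nearest gene, at 0.046 on the log2 scale, and Dcaf6 was the next for both. Xirp2 was nearest to Ttn at 0.092, with Neb second at 0.12. Nearest to Neb were Abcc9 and Trdn (0.077 and 0.092), to Myoz1 Rbfox1 and Prr33 (0.053 and 0.056), and to Ldb3 Ddo and Smyd1 (0.058 and 0.067). The nearest other member to Actn2 was Myom2, at rank 5342, and its nearest genes were Pgpep1, Samd4b and Tbl2 (0.058 to 0.062). For Mybph the nearest, Hbegf, differed by 0.20, which was the largest distance to a nearest gene among the 10. Mybph also varied most of the 10 around its own mean, at a root mean square of 0.50, and Actn2 least, at 0.197. The distances were not set against this spread. Zhx3 was nearest to Myom2 at 0.075 and Pkia to Flnc at 0.094. The 9 group means come from 24 shared libraries, so these distances are descriptions.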

How the data were processed

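RNA of quadriceps muscle was prepared with an Illumina TruSeq RNA kit, per the labels' protocols. The authors deposited 2 tables of raw counts per gene symbol, 1 for the 15 younger libraries and 1 for the 9 libraries of 18 months. The submitters' processing notes name Trim Galore, STAR 2.7.2b, Bowtie2 2.3.4.3, SAMtools 1.9, HTSeq, edgeR and mm10, with no settings. The 5 rows naming no gene, 27.4% to 34.2% of records in the younger table and 42.2% to 48.3% in the other, were left out.

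Counts were scaled by TMM, filtered with filterByExpr and tested with edgeR 4.0.16 (quasi-likelihood F-test, robust, R 4.3.3), with Benjamini-Hochberg adjustment over all genes tested and a threshold of 0.05. The younger table was fitted whole (15013 genes), the 18-month table whole (14337 genes), and the sedentary libraries of both (14937 genes) for interactions with age. SE is the log2 change over the square root of F. DESeq2 1.42.0 was an alternative test. The fits were tested on simulated data in which a small share of genes changed, as many up as down. That test does not cover the scaling between libraries where many genes change, as they do here. The column names of 2 of the WT libraries at 18 months are also the descriptions of 2 run libraries. These columns were therefore matched to their group but not to a replicate number.

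Of 24062 symbols, 22708 (94.4%) matched GENCODE vM21 on GRCm38 (mm10), which gave positions and exonic lengths. The 10 members and the gene lists were chosen with earlier results of these data known. Named genes are the members, Dmd, up to 3 genes of the smallest p per list and comparison, and up to 3 nearest genes by likeness. Same-numbered corrected and delEx44 libraries at 18 months did not deviate together, so they were not treated as pairs. Alternatives were other scalings, no filter, the DESeq2 Wald test, only the groups compared, each library left out, and a block. P-values cover the spread between libraries.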

Additional observations from a re-analysis of the deposited data

Results flagged for a closer look

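These results were singled out because the test of the difference between 2 effects passed (edgeR quasi-likelihood F-test). Values are log2, and the causes were not tested.

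The difference of delEx44 from WT muscle was shifted upward after running, relative to 4 weeks, for Mybph (1.638), Myom2 (0.893), Myoz3 (0.793), Myom1 (0.792) and Myoz1 (0.741). The difference of corrected from delEx44 muscle was shifted downward after running for Mybph (-1.268), Neb (-0.994), Myom2 (-0.956), Myoz3 (-0.864) and Myom1 (-0.813). Both sets use the same delEx44 libraries.

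With age, the difference of delEx44 from WT muscle was shifted upward at 18 months for Myom2 (0.71), Myoz3 (0.512) and Myom1 (0.469). The difference of corrected from delEx44 muscle was shifted downward for Myom2 (-0.45), and the dose and vector type of corrected mice also differed between the ages.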

How the results depend on the processing

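Over all alternatives, 748 recomputed values of called members kept their sign and 140 lost the threshold. Of 1132 recomputed values of members not called, 74 changed sign and 25 newly passed. The causes were not tested.

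Members called, by setting. Total counts gave 5 in place of 9 for delEx44 against WT at 18 months, while 8766 of 14337 genes were called. They gave 4 in place of 9 for corrected against delEx44 at 18 months, while 7127 of 14337 genes were called. For the interaction of the second comparison with age they gave 3 in place of 1, while 2050 of 14937 genes were called. That last interaction had 0 with DESeq2 size factors and 0 with only the groups compared, while 2333 and 2231 genes were called. With only the groups compared, delEx44 against WT after running had 1, corrected against delEx44 after running 0, and the interaction of delEx44 against WT with running 2. Leaving out 1 library gave 0 to 2 for delEx44 against WT after running, 0 to 1 for corrected against delEx44 after running, 0 to 1 for corrected against WT at 18 months, 1 to 2 for running in WT and 3 to 6 for running in delEx44. It gave 0 to 5 for both interactions with running, 1 to 5 for that of delEx44 against WT with age, and 0 to 2 for that of corrected against delEx44 with age. Over all genes, leaving out 1 library gave 1118 to 1426 and 1598 to 2984 called for these 2 interactions with age. The main fit gave 1632 and 2370. For the other fits, counts over all genes are given below. A lone library left in a group was taken to vary like the other groups.

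The numbers of corrected and delEx44 libraries at 18 months, used as a replicate block, gave 7 members in place of 9 and 4397 genes in place of 5880. Same-numbered libraries correlated at -0.031, 0.025 and -0.049. No paired analysis was made for WT at 18 months because 2 columns were not matched to a replicate number.

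All genes called, where a setting moved the count by over 1.5 times. The interaction of delEx44 against WT with running had 132, against 1323 with total counts, 723 with DESeq2, 41 with only the groups compared and 11 to 167 with 1 library left out. That of corrected against delEx44 had 213, against 898, 830 and 0 to 308 for total counts, DESeq2 and 1 library left out. Corrected against WT at 18 months had 683, against 1638 with DESeq2, 16 with only the groups compared and 9 to 2859 with 1 library left out. Corrected against WT had 0 at 4 weeks (212 with DESeq2, 0 to 68 with 1 library left out) and 3 after running (77 with DESeq2, 0 with only the groups compared, 0 to 25). With only the groups compared, delEx44 against WT after running had 2330 in place of 4370 and corrected against delEx44 1256 in place of 3485, and with 1 library left out 2384 to 3187 and 1197 to 2886. Running gave 1324 to 3590 in corrected, 3111 to 4869 in delEx44 and 2216 to 3676 in WT muscle when 1 library was left out.

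Total counts moved the share of calls that were higher to 91.2% in place of 50.2% for delEx44 against WT at 4 weeks, 73.4% in place of 51.2% after running and 85.2% in place of 54.7% at 18 months. For corrected against delEx44 it was 10.1% in place of 47.7%, 26.4% in place of 46.4% and 13% in place of 47.9%. It was 60% in place of 49% for corrected against WT at 18 months. For running it was 62.4% in place of 47.8% in corrected, 22.8% in place of 45.9% in delEx44 and 71.5% in place of 48.6% in WT muscle. For the interactions with running it was 5.9% in place of 66.7% and 90.1% in place of 28.6%, and for delEx44 against WT with age 47.5% in place of 64.2%.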
